A study of Homo sapiens with 18 samples.

Results

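The change in mRNA levels that MV4-11 and THP1 cells shared after 24 h of IACS was described from 12 of the 18 libraries. They were chosen by their labels as the 6 libraries labelled 24 h and the 6 labelled Ctrl. The study's methods give DMSO as the control, so the Ctrl libraries are called DMSO libraries here. MV4-11 and THP1 are human AML cell lines with a KMT2A rearrangement, and IACS (IACS-010759) is an inhibitor of mitochondrial complex I. Each line gave 3 libraries from cells in DMSO, the vehicle, and 3 from cells in 50 nM IACS for 24 h, described as independent replicates. How long the DMSO cells were held is not stated in the labels or methods used here, each line is a single cell line, and both groups share the culture and the vehicle. The remaining 6 libraries, from 8 h of IACS, were used only where 8 h is named.

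Complex I takes electrons from NADH and passes them into the respiratory chain, so its inhibition stops both NADH oxidation and proton pumping. Mitochondrial distress of this kind is known to reach the cytosol through OMA1 and DELE1 and the kinase HRI, which phosphorylates eIF2α. Global translation then falls while translation of the transcription factor ATF4 rises, and ATF4 raises genes of amino acid synthesis, amino acid import and stress control, a program named the integrated stress response (ISR).

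The question was which genes moved in the same direction in both lines, so the 6 IACS libraries were set against the 6 DMSO libraries with the cell line as a covariate. Values are TPM, divided by 1 median-of-ratios factor per library (0.774 to 1.14) and called scaled TPM. Log2 fold changes are on the log2(scaled TPM + 1) scale, which understates the change of low genes. A gene passed at a limma adjusted p under 0.05 and was called when its change was also beyond 1.5-fold. Of 12575 genes tested, those averaging 1 TPM or more in each line, 32 were called higher (0.254%) and 22 lower (0.175%), while 539 passed higher (4.29%) and 575 passed lower (4.57%). The treated and DMSO libraries did not overlap in either line for 394 genes that were higher in both (3.13%) and 449 that were lower (3.57%), and 21 called rises and 15 called falls were among these. Lack of overlap was also a condition of the naming rule, by which the largest rises and falls below were picked. For genes that met this rule it is no separate result. The median log2 fold change over all genes was 0.01. For some lists below, counts at an unadjusted p are also given. The share over all genes at that threshold is not given here for the 24 h effect, so those counts are not read as a change of a list. Coordinates of the protein-coding genes below are those of GENCODE release 44 on GRCh38. In bulk RNA, fewer cells of a type and less RNA per cell cannot be told apart.

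Some properties of the libraries touch these counts. The 5 most abundant noncoding RNAs held 42.9% to 60.1% of the deposited TPM of a library. On TPM as deposited, without the rescaling, 10 genes were called higher and 7 lower, and 21 and 14 passed. MV4-11 replicate 3 at 24 h stood apart, with an SD across genes of 0.27 from its group mean against a median of 0.15 over the 12 libraries. Without it, 47 genes were called higher and 51 lower, and 1109 and 1359 passed. Of 8 myeloid markers, PTPRC, SPI1, CEBPA, CD33 and LYZ were at or above 24.0 TPM in each of the 12 libraries. CSF3R was at or above 23.3 TPM, whereas MPO reached as low as 1.17 TPM and ITGAM 0.822 TPM. Of 20 markers of other cell types, PECAM1 alone reached the filter, and HBB and INS were at 0 in all 12 libraries. The summed TPM of those 20 markers was 21.4 to 22.8 in DMSO and 23.4 to 27.2 at 24 h in MV4-11, and 67.7 to 74.2 and 57.4 to 63.7 in THP1, so that it was higher in one line and lower in the other at 24 h. PECAM1 made up most of this sum, at 16.6 to 17.1 TPM in DMSO and 18.6 to 20.9 at 24 h in MV4-11. In THP1, PECAM1 was at 63.6 to 69.7 and 53.9 to 58.7 TPM. The part of the sum in the results was not tested.

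**Figure D1:**
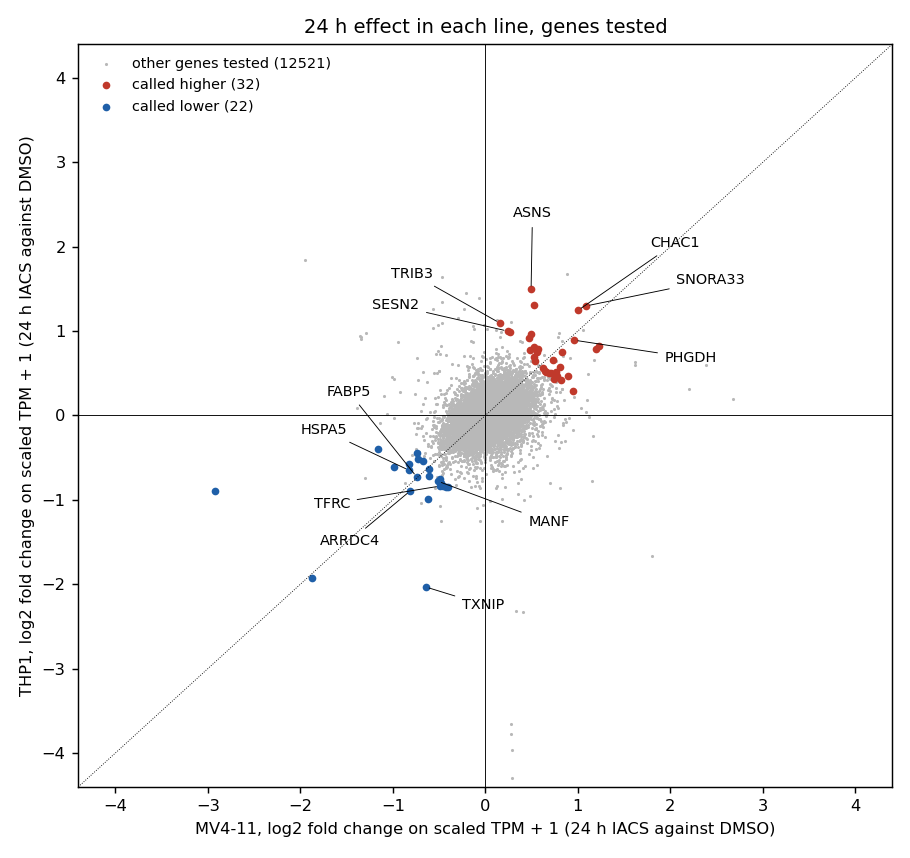
Log2 fold change of each tested gene at 24 h of IACS in MV4-11 (x axis) and in THP1 (y axis), both on scaled TPM + 1, with genes called higher in red, genes called lower in blue and other genes in grey. All 54 called genes lie to the upper right or lower left of the zero lines, where both lines moved the same way, and the dotted line marks equal change. The common fit favours such genes, since opposite effects of the lines cancel in it.

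Some genes of the ISR rose. Of 24 tested regulators and ATF4 stress targets, 10 passed higher and 0 lower, and the median log2 fold change was 0.28. By line, the median of the list was 0.15 in MV4-11 and 0.47 in THP1. On TPM as deposited 3 passed higher, and without MV4-11 replicate 3 at 24 h 12 did. CHAC1 (chr15:40952962-40956512), which encodes an enzyme that degrades glutathione, had the largest rise of the list. CHAC1 was at 0.885, 1.06 and 0.927 scaled TPM in the DMSO libraries of MV4-11 and at 2.59, 3.00 and 3.20 at 24 h. In THP1 it was at 0.539, 0.575 and 0.951 in DMSO and at 4.06, 3.49 and 1.77 at 24 h. The groups did not overlap in either line, and the third THP1 library was the lowest of the treated ones. The log2 fold change of CHAC1 was 1.12 ± 0.14 (SE; limma, adjusted p = 0.00178), and the means rose 3.05-fold in MV4-11 and 4.51-fold in THP1.

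ATF4 itself (chr22:39519695-39522683), the transcription factor at the centre of the program, was at 169.7, 183 and 172 scaled TPM in MV4-11 DMSO and at 235, 219.8 and 247 at 24 h. In THP1, ATF4 was at 138, 135 and 135 in DMSO and at 256, 236 and 178 at 24 h. Treated and DMSO libraries were apart in both lines, and the common log2 fold change was 0.56 ± 0.09 (SE; limma, adjusted p = 0.00588), short of the 1.5-fold needed for a call. DDIT3, which encodes the transcription factor CHOP, passed with 0.49 (limma, adjusted p = 0.011). DDIT3 was at 13.04 to 14.45 scaled TPM in MV4-11 DMSO and 16.3 to 24.2 at 24 h, and at 28.6 to 29.7 and 34.8 to 50.4 in THP1.

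Further called members of the ISR list were JDP2, a bZIP transcription factor (log2 fold change 0.67), VEGFA, a growth factor for blood vessels (0.70), SESN2, a leucine sensor that restrains mTORC1 (0.62), and TRIB3, a pseudokinase that limits ATF4 activity (0.62). The rises of SESN2 and TRIB3 were uneven between the lines. SESN2 changed by 0.24 in MV4-11 and 1.00 in THP1, and TRIB3 by 0.15 and 1.10. TRIB3 was at 5.81, 6.87 and 5.23 scaled TPM in MV4-11 DMSO and at 7.37, 6.27 and 6.56 at 24 h, so that its groups overlapped there. In THP1 it was at 15.6, 16.99 and 25.8 in DMSO and at 47.2, 39.2 and 39.3 at 24 h, with no overlap. The difference between the lines did not pass for SESN2 (limma interaction, adjusted p = 0.33) or for TRIB3 (limma interaction, adjusted p = 0.25). Leaving out any 1 of 5 libraries took SESN2 above the threshold, to an adjusted p of up to 0.0691 in limma, and any 1 of 8 did so for TRIB3, up to 0.0865.

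Of the genes upstream of ATF4, DELE1, the mitochondrial protein that activates HRI, passed with a log2 fold change of 0.24 (limma, adjusted p = 0.025). DELE1 was at 23.9 to 26.8 scaled TPM in MV4-11 DMSO and 30.2 to 32.7 at 24 h, and at 20.6 to 21.7 and 21.8 to 24.8 in THP1, so that the groups lay apart by little in THP1. Leaving out any 1 of 5 libraries took DELE1 to an adjusted p of 0.051 to 0.0684 in limma, and on TPM as deposited it was 0.455. OMA1, the protease that cleaves DELE1, had 0.20 and did not pass (limma, adjusted p = 0.152). The 4 eIF2α kinases, EIF2AK1 (HRI), EIF2AK2 (PKR), EIF2AK3 (PERK) and EIF2AK4 (GCN2), had log2 fold changes of 0.04, -0.02, -0.01 and 0.08, and none passed (limma, lowest adjusted p = 0.386, for EIF2AK4). mRNA levels do not measure kinase activity.

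**Figure D2:**
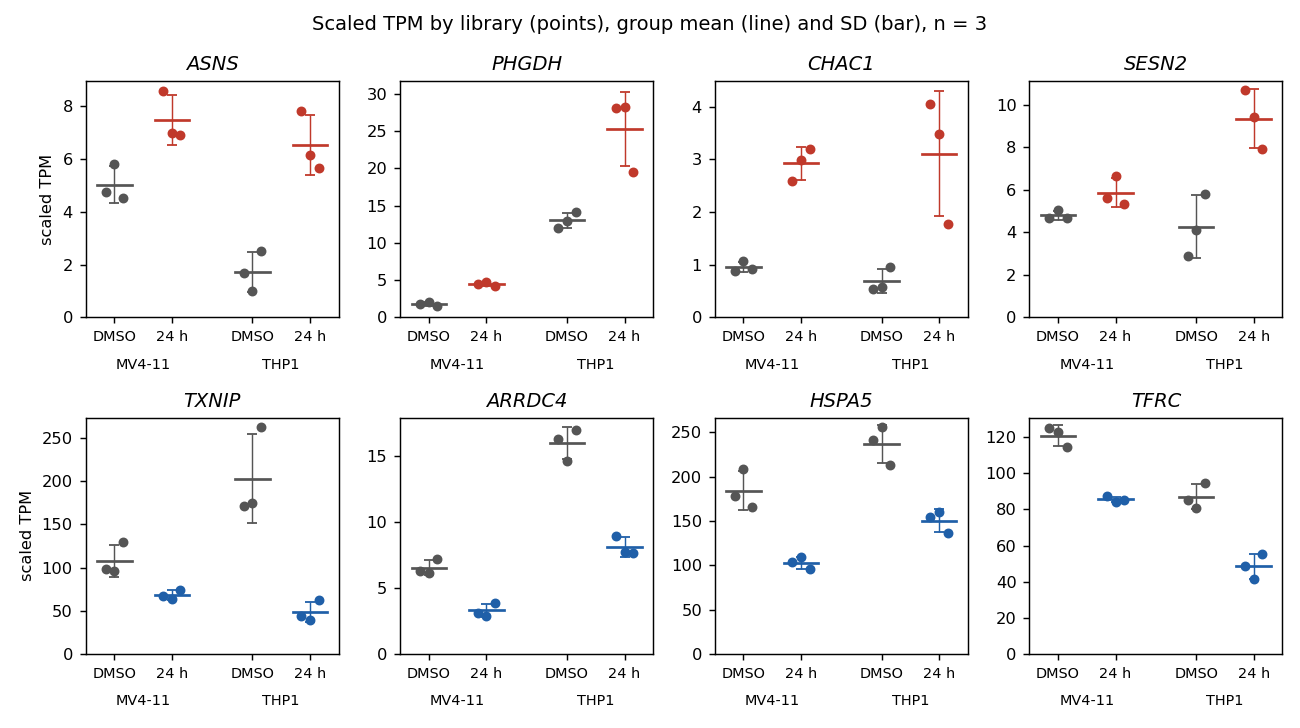
Scaled TPM (y axis, from 0) of 8 genes in the 3 libraries of each group, by line and treatment, with points for libraries, a horizontal line for the group mean and a bar for its SD (n = 3). In both lines the treated libraries of ASNS, PHGDH, CHAC1 and SESN2 lie above the DMSO libraries, and those of TXNIP, ARRDC4, HSPA5 and TFRC below them. Such a separation was a condition of the naming rule, which all of these genes but CHAC1 met.

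Amino acid synthesis genes rose in part. Of 23 tested enzymes of serine, one-carbon and nonessential amino acid metabolism, 7 passed higher and 2 lower, with a median log2 fold change of 0.07. By line, that median was -0.06 in MV4-11 and 0.21 in THP1. On TPM as deposited 2 passed higher and 0 lower. ASNS (chr7:97851677-97872542) encodes asparagine synthetase. ASNS was at 4.75, 5.81 and 4.50 scaled TPM in MV4-11 DMSO and at 8.56, 6.97 and 6.89 at 24 h. In THP1, ASNS was at 1.66, 1.00 and 2.52 in DMSO and at 7.80, 6.13 and 5.65 at 24 h. Neither line had overlapping groups, and the common log2 fold change of ASNS was 0.99 ± 0.19 (SE; limma, adjusted p = 0.0099), with a rise of the means of 1.49-fold in MV4-11 and 3.78-fold in THP1.

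PHGDH (chr1:119648411-119744218), the first enzyme of serine synthesis, moved more evenly. It was at 1.82, 2.06 and 1.58 scaled TPM in MV4-11 DMSO and at 4.54, 4.75 and 4.17 at 24 h. In THP1, PHGDH was at 11.99, 12.9 and 14.1 in DMSO and at 28.1, 28.2 and 19.5 at 24 h. The groups lay apart in both lines although THP1 had the higher level throughout, and the log2 fold change of PHGDH was 0.93 ± 0.09 (SE; limma, adjusted p = 0.000375).

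ALDH1L2, a mitochondrial folate dehydrogenase, and PCK2, mitochondrial PEP carboxykinase, both passed with 0.54. ALDH1L2 changed by 0.16 in MV4-11 and by 0.93 in THP1, while PCK2 changed by 0.56 and 0.51. Falls in the list were those of MTHFD1, the cytosolic folate enzyme (-0.35), and GOT2, the mitochondrial aspartate aminotransferase (-0.30). GOT2 in MV4-11 replicate 3 at 24 h was at 34.4 scaled TPM, level with the highest DMSO library, and in replicates 1 and 2 it was at 23.7 in both. None of 14 tested amino acid transporters passed in limma, and at an unadjusted p under 0.05, 4 were higher and 2 lower. Of 20 cytosolic tRNA synthetases, CARS1 (listed as CARS) passed higher with 0.39, and FARSB (-0.31) and VARS1 (listed as VARS, -0.25) passed lower. Beside the 4.29% and 4.57% of all genes tested, these counts are not read as a change of the list.

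Promoter sequences are shown for genes at both ends of the response, since members of the ISR and ER chaperone lists are known to share short promoter elements. The windows are RefSeq sequences (GRCh38.p14) of 300 bases, from 250 before to 50 after a transcript start, written 5′ to 3′ along the gene. Capitals mark a match to the C/EBP-ATF response element (CARE, TGATGNAA), the ER stress response element (ERSE, CCAAT and CCACG with 9 bases between them) or the carbohydrate response element (ChoRE, CACGNG and again CACGNG with 5 bases between them), where N is any base, searched on both strands.
CHAC1, CARE on the reverse strand, chr15:40953221-40953520, + strand: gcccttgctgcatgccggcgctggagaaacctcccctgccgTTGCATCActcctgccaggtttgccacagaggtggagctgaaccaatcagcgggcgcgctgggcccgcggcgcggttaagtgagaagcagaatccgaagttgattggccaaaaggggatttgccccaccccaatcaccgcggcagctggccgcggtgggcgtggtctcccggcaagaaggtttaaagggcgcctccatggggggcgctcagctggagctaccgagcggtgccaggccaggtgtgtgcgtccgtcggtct
ASNS, CARE, chr7:97872359-97872658, - strand: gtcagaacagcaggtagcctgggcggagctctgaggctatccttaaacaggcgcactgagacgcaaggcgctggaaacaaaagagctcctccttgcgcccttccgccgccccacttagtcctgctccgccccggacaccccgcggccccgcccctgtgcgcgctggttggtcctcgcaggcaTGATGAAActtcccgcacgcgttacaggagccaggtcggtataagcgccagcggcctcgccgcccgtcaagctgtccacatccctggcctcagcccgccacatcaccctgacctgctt
HSPA5, ERSE, chr9:125241294-125241593, - strand: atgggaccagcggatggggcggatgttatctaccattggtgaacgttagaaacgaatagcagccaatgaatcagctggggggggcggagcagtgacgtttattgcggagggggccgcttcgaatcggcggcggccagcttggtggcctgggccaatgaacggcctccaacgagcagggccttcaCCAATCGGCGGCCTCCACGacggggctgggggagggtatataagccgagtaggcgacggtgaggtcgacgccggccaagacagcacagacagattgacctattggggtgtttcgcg
CRELD2, ERSE on the reverse strand, chr22:49918384-49918683, + strand: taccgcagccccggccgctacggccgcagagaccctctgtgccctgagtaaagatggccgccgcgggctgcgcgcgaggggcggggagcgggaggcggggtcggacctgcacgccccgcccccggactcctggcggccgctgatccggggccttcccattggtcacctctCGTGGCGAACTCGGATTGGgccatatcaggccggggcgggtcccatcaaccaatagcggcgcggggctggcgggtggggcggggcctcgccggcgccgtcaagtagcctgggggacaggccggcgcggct
TXNIP, ChoRE, chr1:145996530-145996829, - strand: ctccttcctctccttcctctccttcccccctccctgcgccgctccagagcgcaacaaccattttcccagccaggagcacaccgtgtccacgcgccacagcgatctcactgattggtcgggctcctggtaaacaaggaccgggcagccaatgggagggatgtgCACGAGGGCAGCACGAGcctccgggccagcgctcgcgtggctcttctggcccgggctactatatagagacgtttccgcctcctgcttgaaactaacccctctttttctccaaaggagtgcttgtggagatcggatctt

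The windows covered 8832 of the 12575 tested genes, and a gene was counted when any of its windows held a match. CARE was found in 2.31% of these, ERSE in 0.17% and ChoRE in 0.17%. Over all 35116 windows of the reference table, the shares were 3.62%, 0.0769% and 0.057%. Of the 21 tested ISR genes with a window, 3 held CARE, namely CHAC1, JDP2 and CEBPG, and CEBPG did not pass. Of the 15 amino acid enzymes with a window, 3 held CARE, namely ASNS, GOT1 and MTHFD1L, and the last 2 did not pass. ERSE was found in 8 of the 24 ER chaperone genes with a window, of which HSPA5, CALR, CRELD2, HSP90B1 and PDIA6 passed lower and CANX, ERO1B and XBP1 did not pass. ChoRE was found in TXNIP and in 0 of the other 10 α-arrestin genes and MondoA partners. These genes were picked by the match after their values were seen. A match is a run of letters and not a measured binding site, and a window without one says nothing about the rest of the gene.

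The naming rule took called genes with a mean of at least 5 scaled TPM and no overlap in either line. Of the genes that met it, TXNIP and ARRDC4 had the largest falls. TXNIP (chr1:145992435-145996579), which encodes an α-arrestin that limits glucose uptake and binds thioredoxin, was at 98.9, 96.3 and 129 scaled TPM in MV4-11 DMSO and at 66.9, 63.8 and 74.4 at 24 h. In THP1, TXNIP was at 171, 175 and 262 in DMSO and at 44.5, 39.6 and 62.1 at 24 h. Its treated libraries were below its DMSO libraries in both lines, and the log2 fold change was -1.34 ± 0.23 (SE; limma, adjusted p = 0.00748). The change of TXNIP was -0.64 in MV4-11 and -2.03 in THP1, and this difference between the lines did not pass (limma interaction, adjusted p = 0.21).

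ARRDC4 (chr15:97960703-97973833), an α-arrestin known to act on glucose uptake like TXNIP, fell to nearly the same ratio in both lines. ARRDC4 was at 6.30, 6.14 and 7.24 scaled TPM in MV4-11 DMSO and at 3.15, 2.91 and 3.87 at 24 h. In THP1 it was at 16.3, 14.6 and 16.98 in DMSO and at 8.98, 7.77 and 7.64 at 24 h. No library crossed between the groups, the 24 h means were 0.505 and 0.509 of the DMSO means, and the log2 fold change of ARRDC4 was -0.85 ± 0.07 (SE; limma, adjusted p = 0.000139). TXNIP and ARRDC4 were the 2 of 11 tested genes of this list that passed, and the median of the list was 0.04.

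A number of ER chaperone genes fell. Of 25 tested genes of ER folding, 12 passed lower and 0 higher, 5 of them were called, 6 of the 25 lay above 0, and the median was -0.21. HSPA5 (chr9:125234853-125241382) encodes BiP, the main Hsp70 chaperone of the ER. HSPA5 was at 178, 208 and 166 scaled TPM in MV4-11 DMSO and at 104, 109 and 95.9 at 24 h. In THP1 it was at 241, 256 and 213 in DMSO and at 155, 160 and 136 at 24 h. The groups were apart in both lines, and the log2 fold change of HSPA5 was -0.74 ± 0.08 (SE; limma, adjusted p = 0.000881).

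SDF2L1, an ER protein that works with BiP (-0.81), MANF, a secreted ER stress protein (-0.65), CRELD2, an ER protein of the same stress program (-0.64), and CALR, the lectin chaperone calreticulin (-0.59), were also called lower. MV4-11 replicate 3 at 24 h was the exception in several of them. SDF2L1 was at 20.6, 22.1 and 39.2 scaled TPM in the MV4-11 libraries at 24 h, against 32.7, 44 and 47.1 in DMSO. In THP1, SDF2L1 was at 58.6, 64.9 and 54.4 in DMSO and at 30.9, 31.4 and 25.8 at 24 h. The third treated MV4-11 library thus lay within the DMSO range, and the THP1 groups did not overlap. Without that library, 12 of the 25 genes again passed lower, and on TPM as deposited 2 did.

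**Figure D3:**
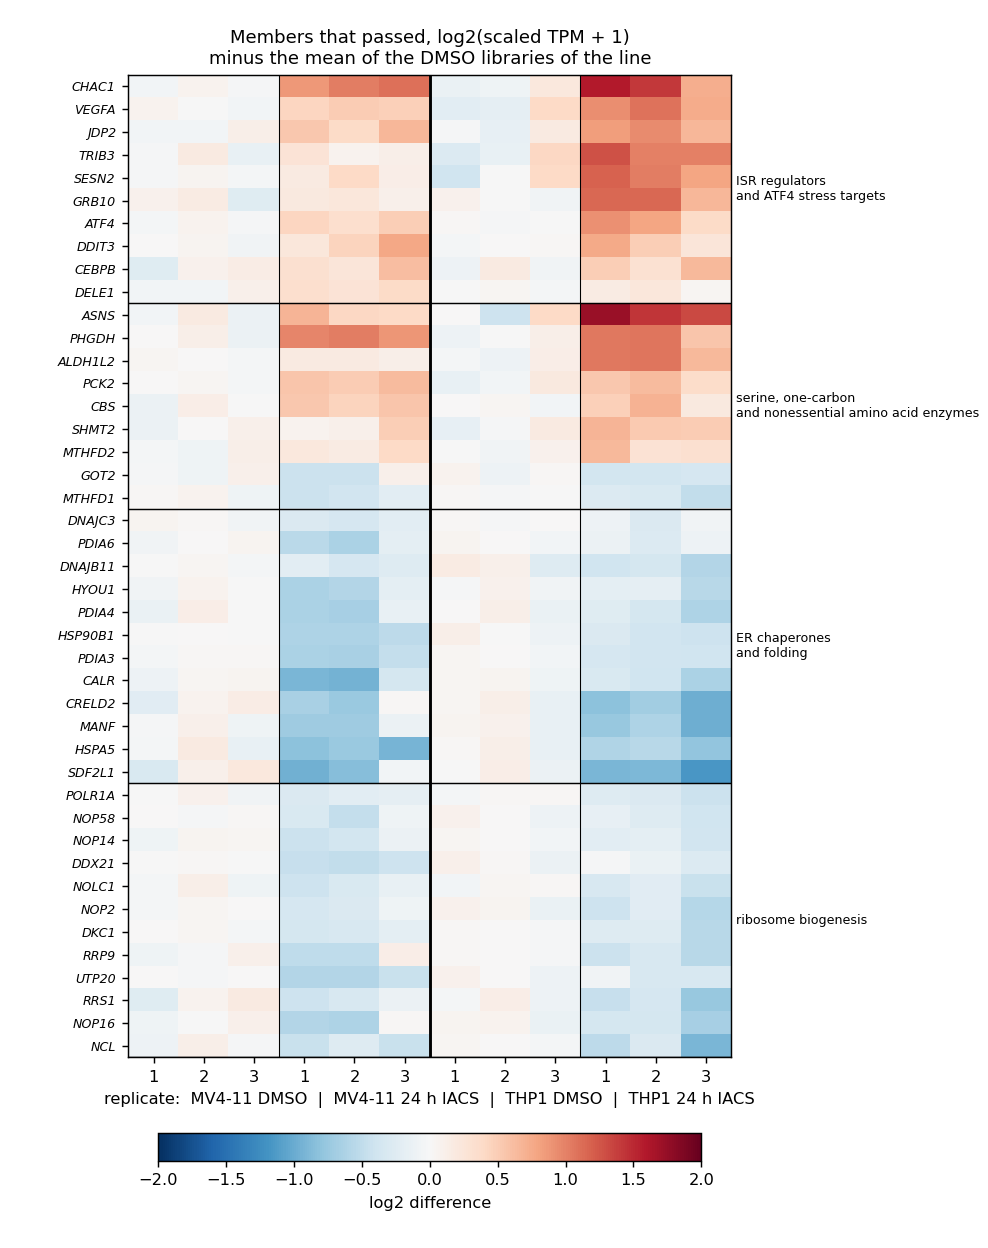
Log2(scaled TPM + 1) of each library minus the mean of the 3 DMSO libraries of its line, for the members of 4 lists that passed (rows) in the 12 libraries (columns), with rises in red and falls in blue. ISR and amino acid genes are mostly red and ER chaperone and ribosome biogenesis genes mostly blue at 24 h in both lines, MTHFD1 and, but for that of the third MV4-11 library, GOT2 being blue among the amino acid genes, and the third MV4-11 library at 24 h is paler than the other 2 in many of the falling genes.

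Some genes of ribosome production and of DNA replication fell by small amounts. Of 26 ribosome biogenesis genes, 12 passed lower, 0 passed higher and 0 had a log2 fold change above 0, with a median of -0.28. NCL, the nucleolar protein nucleolin, had the largest fall (-0.48; limma, adjusted p = 0.0127). NCL was at 284, 329 and 299 scaled TPM in MV4-11 DMSO and at 224, 255 and 222 at 24 h, and in THP1 at 234, 227 and 219.8 in DMSO and at 158, 186 and 120 at 24 h. NOP16 (-0.42), RRS1 (-0.40) and UTP20 (-0.39), which act in ribosome subunit assembly, followed. Of 28 DNA replication and nucleotide supply genes, 10 passed lower and 0 higher, with a median of -0.26, and 1 of the 28 lay above 0. Among them were the GINS helicase subunits GINS2 (-0.44) and GINS1 (-0.35), the origin licensing factor CDC6 (-0.38) and the polymerase subunit POLA1 (-0.37). Without MV4-11 replicate 3 at 24 h, 21 genes of ribosome biogenesis and 21 of DNA replication passed lower, and on TPM as deposited 0 of either list did, with medians of -0.32 and -0.30. None of 23 mitosis and spindle genes passed in limma, and 4 were lower at an unadjusted p under 0.05. None of 60 cytosolic ribosomal protein genes passed, 3 were higher at an unadjusted p under 0.05, and their median was 0.11.

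Some nuclear genes of the respiratory chain fell by small amounts. Of 37 nuclear complex I subunits, the enzyme that IACS inhibits, 9 passed lower and 0 higher, 0 were called, and the median log2 fold change was -0.19. NDUFS6, an accessory subunit, fell most. NDUFS6 was at 67.4, 75.3 and 93.0 scaled TPM in MV4-11 DMSO and at 50.8, 50.9 and 67.6 at 24 h. In THP1 it was at 80.1, 76.0 and 71.2 in DMSO and at 50.0, 56.6 and 44.3 at 24 h. The third treated MV4-11 library met the lowest DMSO library and the THP1 groups were apart, with a log2 fold change of NDUFS6 of -0.53 (limma, adjusted p = 0.00893). NDUFAB1 (-0.41), NDUFB6 (-0.39) and NDUFA12 (-0.34) were next.

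Of 38 nuclear subunits of complexes II to V, 4 passed lower, namely the ATP synthase subunits ATP5MC1 (-0.52), ATP5PF (-0.41) and ATP5MC3 (-0.38) and the cytochrome c oxidase subunit COX5A (-0.36), and the median was -0.16. Without MV4-11 replicate 3 at 24 h, 20 complex I genes and 20 of complexes II to V passed lower, and on TPM as deposited 0 of either did, with medians of -0.23 and -0.20. ATP5MC1 was at 60.7 scaled TPM in that library, above the MV4-11 DMSO libraries, and at 28.9 and 31.5 in the other 2. None of the 13 mitochondrially encoded mRNAs passed in limma, and 1 was higher at an unadjusted p under 0.05.

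Among 16 mitochondrial chaperones and proteases, 4 passed lower and 0 higher, and 0 passed on TPM as deposited. HSPE1, the chaperonin cofactor Hsp10, was called with -0.62 (limma, adjusted p = 0.00609). HSPE1 was at 112, 111 and 107 scaled TPM in MV4-11 DMSO and at 60.3, 62.9 and 97.3 at 24 h, and in THP1 at 149, 139 and 132 in DMSO and at 96.9, 93.1 and 80.8 at 24 h. Its partner HSPD1 (Hsp60) had -0.39, and the import channel genes TIMM23 and TIMM17A had -0.36 and -0.29. Of 18 TCA cycle genes, IDH3A (-0.35) and PDHA1 (-0.22) passed lower.

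**Figure D4:**
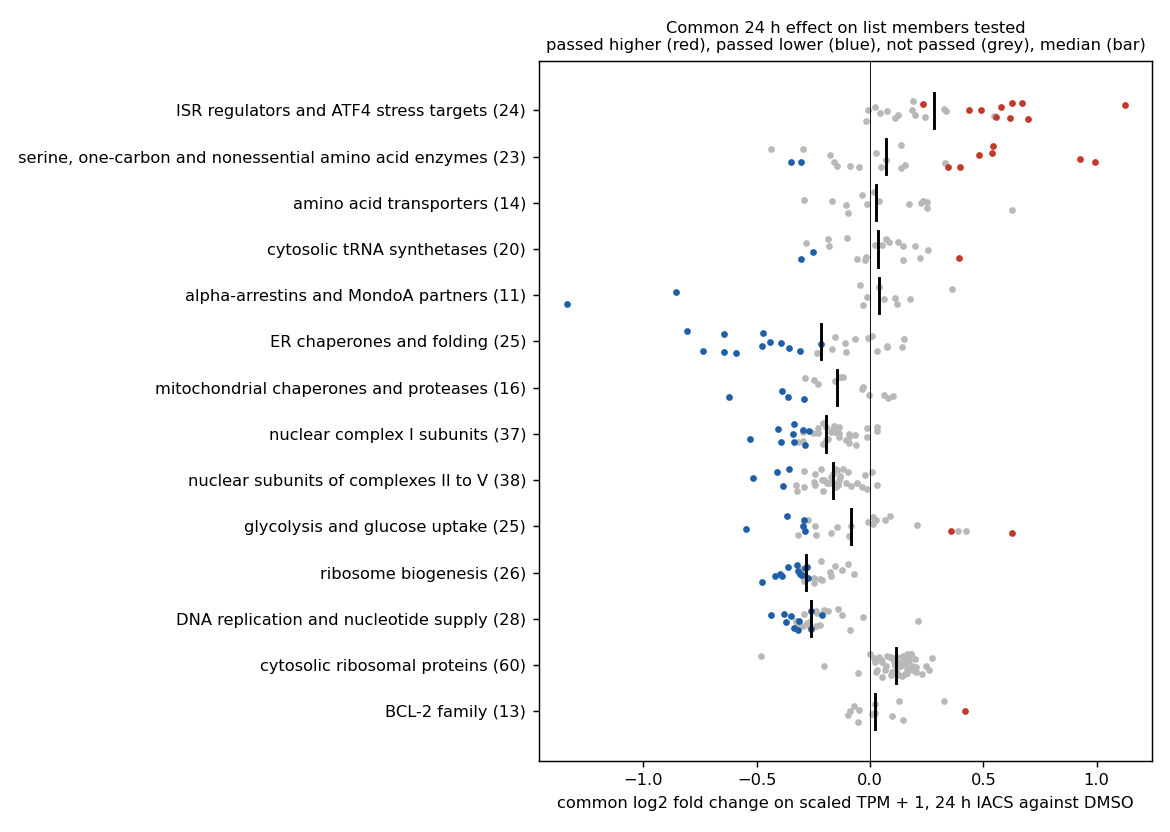
Common log2 fold change at 24 h of IACS against DMSO (x axis, scaled TPM + 1) for each tested member of 14 gene lists (rows, number tested in parentheses), with members that passed in red (higher) or blue (lower), others in grey and a black bar at the median. The ISR list has 10 red points, and ER chaperones, ribosome biogenesis and DNA replication have 12, 12 and 10 blue points.

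Glycolysis genes moved both ways. Of 25 tested genes, 2 passed higher and 5 lower, with a median of -0.09, while on TPM as deposited 1 passed each way. The 2 rises were in PFKFB4 and PFKFB2, enzymes that set the level of fructose 2,6-bisphosphate, an activator of phosphofructokinase. PFKFB4 was at 2.96, 3.20 and 3.32 scaled TPM in MV4-11 DMSO and at 5.21, 4.82 and 4.38 at 24 h. In THP1 it was at 3.65, 3.49 and 3.75 in DMSO and at 7.15, 6.43 and 7.17 at 24 h. The groups were well apart in both lines, and the log2 fold change of PFKFB4 was 0.63 ± 0.07 (SE; limma, adjusted p = 0.00178).

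The largest fall of the glycolysis list was that of LDHA, the lactate dehydrogenase subunit that reduces pyruvate. LDHA was at 231, 238 and 221 scaled TPM in MV4-11 DMSO and at 138, 141 and 179.7 at 24 h, and in THP1 at 219.9, 212 and 221 in DMSO and at 156, 156 and 148 at 24 h. The groups were apart in both lines, and the log2 fold change of LDHA was -0.55 ± 0.07 (SE; limma, adjusted p = 0.00178), short of a call. ENO1 (-0.37), ALDOA (-0.30) and the lactate transporter SLC16A1 (-0.29) also passed lower and were not called. However, ENO1 no longer passed without any 1 of 10 libraries, ALDOA of 11 and SLC16A1 of 7, and none of these 3 genes passed on TPM as deposited. Of 13 HIF targets, which hypoxia is known to raise, VEGFA (0.70) and MXI1 (0.27) passed higher, and 0 passed lower.

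TFRC (chr3:196012511-196082153), the transferrin receptor that imports iron, was at 125, 123 and 114 scaled TPM in MV4-11 DMSO and at 87.2, 84.3 and 85.3 at 24 h. In THP1, TFRC was at 85.4, 81.0 and 94.7 in DMSO and at 48.8, 41.5 and 55.2 at 24 h. No library crossed between the groups, and the log2 fold change of TFRC was -0.66 ± 0.08 (SE; limma, adjusted p = 0.00178). Of 20 iron and heme genes, ALAS1, the first enzyme of heme synthesis (0.46), and the iron carriers SLC25A37 (0.24) and SLC11A2 (0.16) passed higher.

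Other lists held few changes. In the BCL-2 family, the BH3-only gene BMF passed higher among 13 tested (0.42; limma, adjusted p = 0.0338). BMF was at 12.4 to 13.8 scaled TPM in MV4-11 DMSO and 14.6 to 18.8 at 24 h, and at 1.24 to 2.04 and 2.12 to 3.68 in THP1, so that the groups lay apart by small margins, and leaving out any 1 of 7 libraries took its adjusted p in limma to between 0.0517 and 0.0802. PRDX1 (-0.36) and TXN (-0.30), which act in peroxide and disulfide reduction, passed lower among 14 NRF2 and glutathione genes. WIPI1 (0.50), which acts in autophagosome formation, passed higher among 22 lysosome and autophagy genes. Over all genes tested, 4.29% passed higher and 4.57% lower, so these small counts are not read as a change of a list. In limma, 0 of 31 cholesterol and fatty acid synthesis genes, 0 of 14 p53 targets, 0 of 11 genes of the KMT2A-fusion program and 0 of 14 replication-dependent histone genes passed. At an unadjusted p under 0.05 these lists had 4, 2, 3 and 0 genes higher and 3, 1, 0 and 1 lower. Without the share over all genes at that threshold, these counts too are not read as a change of a list.

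Outside the pathway lists, 2 myeloid surface genes were among the largest rises. ITGAX, the integrin CD11c of myeloid cells, was at 2.82, 2.85 and 2.38 scaled TPM in MV4-11 DMSO and at 5.46, 6.47 and 4.66 at 24 h, and in THP1 at 19.4, 23.5 and 22.7 in DMSO and at 24.6, 31.8 and 32.6 at 24 h. The log2 fold change of ITGAX was 0.62 (limma, adjusted p = 0.0065). MILR1, an inhibitory receptor of mast cells, was at 21.3, 21.8 and 27.2 in MV4-11 DMSO and at 37.9, 37.5 and 41.2 at 24 h, and in THP1 at 25.01, 25.5 and 22.3 in DMSO and at 36.5, 33.5 and 33.9 at 24 h. Both genes had groups apart in both lines, as the naming rule required, and the log2 fold change of MILR1 was 0.61 (limma, adjusted p = 0.00178). Of 26 monocyte and granulocyte effector genes, ITGAX and the G-CSF receptor gene CSF3R (0.31) passed higher and 0 lower, and the median was 0.00. CSF3R changed by 0.52 in MV4-11 and 0.09 in THP1, where its groups overlapped.

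The remaining rises that met the naming rule were NOXA1, an activator of an NADPH oxidase (0.68), ABHD8 (0.64), the snoRNA host gene SNHG32 (0.59), the ubiquitin and ISG15 conjugating enzyme UBE2L6 (0.59) and AC147651.4 (0.59). The remaining falls were Z93241.1 (-0.80), FABP5, a fatty acid binding protein (-0.74), BANF1, a chromatin and nuclear envelope protein (-0.64), NUDC, a dynein cofactor (-0.63), and the oxysterol receptor GPR183 (-0.62). FABP5 was among the most even, with -0.74 in MV4-11 and -0.73 in THP1. Of small noncoding RNAs, SNORA33 (1.19) and SNORA50A_1 (0.92) were called higher, but SNORA33 was at 0 in 2 of 3 DMSO libraries of each line and SNORA50A_1 in 2 of 3 of THP1, so that the fitted values are no measure of a fold. The MV4-11 groups of both overlapped, and the calls were lost without any 1 of 3 libraries for SNORA33 and of 8 for SNORA50A_1. A further 15 genes were called higher, with log2 fold changes of 0.59 to 1.02, and 8 lower, from -0.61 to -1.91. Of these, chosen after their values were seen, UTP14C (1.02) has a near-identical copy and its reads may be split, while CLDN7 (0.69), TSC22D3 (0.69), IL23A (0.65) and P2RX7 (0.59) had no overlap between groups in either line.

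At 8 h of IACS, a comparison that shares the 6 DMSO libraries, 8 genes were called higher (0.0636%) and 4 lower (0.0318%), and 31 (0.247%) and 55 (0.437%) passed. CHAC1 changed by 1.32 at 8 h and 1.12 at 24 h, ASNS by 0.88 and 0.99, ATF4 by 0.41 and 0.56, TXNIP by -1.59 and -1.34, and ARRDC4 by -1.01 and -0.85. The median of the ISR list was 0.19 at 8 h and 0.28 at 24 h, and that of ER chaperones was -0.18 and -0.21. The median of ribosome biogenesis was -0.08 at 8 h and -0.28 at 24 h, that of nuclear complex I -0.02 and -0.19, and that of complexes II to V 0.01 and -0.16. The 24 h libraries were also tested against the 8 h libraries directly, without DMSO. MILR1 alone passed higher (0.00795%), by 0.41 (limma, adjusted p = 0.047), and 0 genes passed lower, while 1528 genes had an unadjusted p under 0.05 (12.2%). The differences between 8 h and 24 h in the list medians were thus not tested.

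The fit averages both lines, and all 1114 genes that passed had the same sign in both. Opposite effects of the lines cancel in such a fit, so it favours genes of 1 sign and this count is no test of agreement. Across the 12575 genes, the log2 fold changes of the lines had a Pearson r of 0.30 and a Spearman rho of 0.36, as a description over genes, which are not independent and whose values within a line share their DMSO libraries. In the interaction of treatment and line, 1 gene passed (0.00795%), and 1319 had an unadjusted p under 0.05 (10.5%). That gene was ARRDC3, an α-arrestin of the same list as TXNIP, with 0.84 in MV4-11 and -0.12 in THP1, and its common log2 fold change of 0.36 did not pass (limma, adjusted p = 0.139).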

How the data were processed

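RNA sequencing of MV4-11 and THP1 cells was used from 12 libraries, with 3 replicates per group, and groups were taken from the sample labels. The authors deposited TPM for 45372 gene symbols, made, as the study's methods state, from TruSeq libraries with paired-end reads trimmed by quality and aligned to GRCh38 in CLC Genomics Workbench. The annotation release and any use of strand are not given in the sources used here. TPM divide by gene length and sum to the same total in each library, so sequencing depth is unknown, no counting interval is given, and a gain of abundant short RNAs lowers all other values. 0 columns of the table were left out.

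Genes averaging 1 TPM or more in each line were kept, libraries were divided by median-of-ratios factors, and log2(scaled TPM + 1) was tested with limma 3.58.1 (lmFit and eBayes with a variance trend, R 4.3.3, 2-sided) with the cell line as covariate. Adjusted p-values are Benjamini-Hochberg over all 12575 genes, including those of the interaction and of 24 h against 8 h, the latter scaled over 18 libraries. The fit was tested on simulated data. P-values of the common effect weigh it against the spread that the fit leaves. That spread holds differences between libraries and differences of the effect between the 2 lines, and does not extend to other lines. The study's own Kruskal-Wallis test was an alternative.

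The comparison, the 29 gene lists and the genes named were chosen with earlier results of these data known. List genes were matched by symbol, 35 by an older one and 639 of 641 in the table. Named genes were the 12 largest rises and 12 largest falls among called genes with a mean of at least 5 scaled TPM and no overlap in either line (10 rises and 12 falls met this), with up to 3 small noncoding RNAs each way named apart. ATF4, DDIT3, CHAC1, ASNS, TRIB3, TXNIP, ARRDC4, TFRC, the eIF2α kinases, DELE1 and OMA1 were named whatever their values, and from each list up to 4 rises and up to 4 falls that passed. Some results are not reported here. Figures were drawn with matplotlib 3.10.9.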

Additional observations from a re-analysis of the deposited data

Results flagged for a closer look

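The effect of 24 h of IACS on ARRDC3 differed between the lines, by -0.958 on the log2 scale (THP1 minus MV4-11; limma interaction, adjusted p = 0.0282 over 12575 genes). ARRDC3 had a mean of 6.11 scaled TPM in MV4-11 DMSO and 11.7 at 24 h, with all 3 treated libraries above all 3 DMSO libraries, and of 31.7 and 29.2 in THP1, where the groups overlapped. Over all genes, 117 (0.93%) had treated and DMSO libraries fully apart in both lines in opposite directions, 53 up in MV4-11 and 64 up in THP1, and none of these differences passed the interaction test. Single genes were not checked for outlying libraries within groups of 3.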

How the results depend on the processing

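The direction of each of the 77 named genes that passed was the same in each alternative that tested it, but the number of genes past the threshold was not. Called higher and lower were 32 and 22 as reported, 10 and 7 on TPM as deposited, 22 and 21 after quantile normalization, 71 and 27 with a pseudocount of 0.1, 17 and 18 with no filter (30118 genes), and 6 and 9 with a mean of at least 10 TPM (6682 genes). The share of rises among called genes was 59.3%, and it was 51.2% after quantile normalization, 72.4% with a pseudocount of 0.1, 48.6% with no filter and 40% with at least 10 TPM. Passed higher and lower were 539 and 575, 21 and 14 on TPM as deposited, and 208 and 319 with no filter. Kruskal-Wallis tests of the pooled lines at an unadjusted p, which are not the study's own tests, gave 1516 and 1468. MV4-11 alone, with 3 against 3 libraries, gave 13 and 2 called and 13 and 3 passed, and THP1 alone 15 and 14 called and 20 and 20 passed. Leaving out 1 library gave 20 to 47 called higher, 16 to 51 called lower, 207 to 1109 passed higher and 239 to 1359 passed lower, with the highest counts without MV4-11 replicate 3 at 24 h. The cause of these shifts was not tested.

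Of the 77 named genes that passed, 16 also passed on TPM as deposited, 48 passed without any 1 library, and 29 missed the threshold in at least 1 such fit, with an adjusted p of up to 0.113 in limma. Among the 29, ALDOA, ATP5MC1, GOT2, SLC11A2 and VARS1 did so without any 1 of 11 libraries, ENO1, PDHA1 and TXN of 10, ATP5MC3 of 9, SNORA50A_1 and TRIB3 of 8, BMF, CSF3R, NDUFA12, NOP16 and SLC16A1 of 7, NDUFAB1 and RRS1 of 6, DELE1, GINS1, MXI1 and SESN2 of 5, ALDH1L2 and SNORA33 of 3, and PRDX1, SLC25A37 and WIPI1 of 2, and TIMM17A of 1. The median of the serine, one-carbon and amino acid list was 0.07 as reported and -0.0649 in MV4-11 alone.

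Libraries with the same replicate number did not deviate together throughout (correlations of 0.31, 0.08 and 0.49 in MV4-11 and 0.16, 0.20 and 0.34 in THP1), and the other 4 numbers but not MV4-11 replicates 1 and 2 correlated best with their own, so the numbers were not taken as pairs. With the replicate block, 34 and 25 genes were called and 893 and 901 passed, complexes II to V going from 4 to 11 passed lower, ribosome biogenesis from 12 to 19 and DNA replication from 10 to 16, and for 24 h against 8 h 4 passed higher and 1 lower, against 1 and 0. Depth is unknown, so genes near 1 TPM, of which CHAC1 is one, carry a counting error that the files do not show.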
